A study of Danio rerio with 12 samples.

Results

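The GFP over DsRedx difference of zebrafish mpeg1-expressing cells was compared between gill and intestine. For each gene the measure was the log2 difference of gill GFP over gill DsRedx cells minus the log2 difference of intestine GFP over intestine DsRedx cells, here called the interaction. A positive value means that the signed GFP over DsRedx difference was higher in gill, and a negative value that it was lower in gill. The sign does not say in which organ the difference was larger in size. Of 32520 genes counted, 10666 passed the filter on low counts. The 4710 genes described had a mean of at least 50 CPM in at least 1 group, CPM being counts scaled to the TMM-adjusted library size, and were sorted by the group that departs from the other 3. The nearest genes inside that limit were POLR2D at 50.02 CPM, PSMB9 at 50.04 CPM and atox1 at 50.06 CPM, and the nearest outside were SHKBP1 at 49.97 CPM, CALHM5 at 49.96 CPM and fahd2a at 49.95 CPM.

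Macrophages are blood-derived phagocytes that engulf particles and present antigen on MHC class II molecules. The metaphocytes of gill and intestine are mpeg1-expressing cells of endodermal descent with features of epithelium. The epithelium of the gill and the lining of the gut each have their own transcription factors, junction proteins and apical enzymes, so a difference between the cell types can be shared by both organs or belong to 1 of them.

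All fish were adult and of 1 genotype, with 2 transgenes. The first is sox17:CreERT2, in which sox17, an endoderm gene, drives a Cre recombinase that needs a tamoxifen-type ligand. The second is mpeg1:loxP-DsRedx-loxP-GFP, in which the macrophage promoter mpeg1 drives DsRedx until Cre swaps it for GFP. The groups were gill GFP, gill DsRedx, intestine GFP and intestine DsRedx, with 3 SMART-seq2 libraries of 30 to 50 sorted cells each and 12 in all. The series design calls GFP cells metaphocytes and DsRedx cells macrophages. The labels do not say how the ligand was given or whether replicates came from different fish, so p-values measure the spread between these libraries, which may be technical.

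Libraries held 5895669 to 12365233 counts. Genes with a count numbered 9931 to 11881 in gill GFP, 9506 to 10224 in gill DsRedx, 12802 to 13278 in intestine GFP and 11312 to 11767 in intestine DsRedx libraries. Replicates correlated at 0.65 to 0.67 in gill GFP, 0.56 to 0.58 in gill DsRedx, 0.72 to 0.77 in intestine GFP and 0.62 to 0.66 in intestine DsRedx (Pearson r of log2(CPM + 1)), and the common biological coefficient of variation was 1.42. Of the markers set for the sorted populations, ptprc and epcam separated the reporters in both tissues, and some others did so less clearly. The leukocyte phosphatase gene ptprc had 1.41 to 2.13 CPM in gill GFP against 353 to 588 CPM in gill DsRedx libraries. In intestine it had 2.49 to 3.37 CPM in GFP against 266 to 797 CPM in DsRedx libraries. The epithelial adhesion gene epcam had 488 to 1931 CPM in gill GFP against 14.2 to 43.5 CPM in gill DsRedx libraries. Its intestine levels were 1122 to 2423 CPM in GFP against 15.1 to 20.4 CPM in DsRedx libraries. MPEG1 (ENSDARG00000055290) had means of 351 CPM in gill GFP against 1538 CPM in gill DsRedx cells, and 264 against 1815 CPM in intestine. A further gene with that symbol (ENSDARG00000043093) had 0.492 against 117 CPM in gill and 1.31 against 22.9 CPM in intestine. The keratin gene krt18a.1 had gill means of 120% of the tissue mean in GFP and 79.9% in DsRedx cells, against 198% and 2.19% in intestine. csf1ra was low in gill DsRedx libraries, as given below. ptprc and epcam differed by reporter in both tissues (a call made for 4.59% of the genes tested in gill and 4.12% in intestine). Neither was called for the interaction (adjusted p = 0.933 for ptprc and 0.734 for epcam, edgeR). The ptprc means in GFP cells were 0.796% of the tissue mean in gill and 1.12% in intestine, of the order of the low level given next. Its interaction compares values of that order, and was 3.38 with that level removed (adjusted p = 0.303, edgeR). The epcam means in DsRedx cells were 4% of the tissue mean in gill and 2.2% in intestine. The intestine value is also of that order, so the size of the epcam interaction depends on that level too.

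Genes much lower in 1 reporter of a tissue still had a low level in its libraries. The level was taken from genes over 30-fold apart between the reporters of a tissue, with a minimum set on the tissue mean. Their lowest library stood at a median 0.823% of the tissue mean in gill (58 genes) and 1.84% in intestine (82 genes). The fold limit keeps the low group far below the tissue mean by selection, and nothing in it picks silent genes. Called genes that meet these limits, such as HMOX1 in gill, helped to set the level. Genes set beside the level here are given by group means, not by their lowest library. The source of this level was not tested. Values of that order are not read as expression here. The size of a log2 difference with such a value on 1 side depends on that level.

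A change of the GFP over DsRedx difference between the organs passed the test for 16 genes. The heme oxygenase gene HMOX1 was much lower in GFP than in DsRedx cells of gill, the myosin gene MYH9 was higher in GFP than in DsRedx cells of gill, and the chemokine receptor gene CXCR4 was lower in GFP than in DsRedx cells of intestine. ANXA4, AQP3 and pleca were higher in GFP than in DsRedx cells of intestine. None of these 6 genes was called in the other organ.

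The interaction was called for 16 of the 10666 genes tested (0.15%), 6 positive (0.0563%) and 10 negative (0.0938%), by edgeR's quasi-likelihood test at a Benjamini-Hochberg adjusted p under 0.05. All 16 were among the 4710 genes (0.34%). By the same fit 7 of the 16 were called between reporters in gill only, 8 in intestine only and 1 in both. A call in 1 organ only does not show that the other organ had no difference. Among the 7, ace and ptprh were highest in intestine GFP. Their intestine differences of 5.49 and 3.81 were not called (adjusted p = 0.0585 and 0.141, edgeR), and the gill difference of ace drew on gill DsRedx 3. An unadjusted p under 0.05 was reached by 1500 genes tested (14.1%), 738 positive (6.92%) and 762 negative (7.14%), and by 688 of the 4710 (14.6%). Across the 4710 genes the gill and intestine log2 differences had a Pearson r of 0.465, a description across genes, which are not independent replicates. The count of calls depended on single libraries: it was 4, 2 and 1 without gill GFP 1, 2 and 3, 5, 1 and 3 without intestine GFP 1, 2 and 3, and 8 and 3 without intestine DsRedx 1 and 2, and 15 to 17 without each other library. Of the 16 genes, si:dkey-56m19.5 alone was called in all 12 of these fits. The tool also mattered: DESeq2 called 438 of the 4710 genes and limma on log2(TPM + 1) 155, with 15 and 12 of the 16 among them. limma called none with a pseudocount of 0.1 (602 at an unadjusted p under 0.05), and edgeR called 2 with the number of genes with a count as a covariate. With the shared low level removed edgeR called 29, with 13 of the 16 among them. A gene is said to be called by edgeR unless another tool is named. On simulated counts edgeR recovered 17.9% of changes of 4 and 81.8% of changes of 8 on the log2 scale, so a gene not called is not shown to be alike in both organs.

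**Figure D1:**
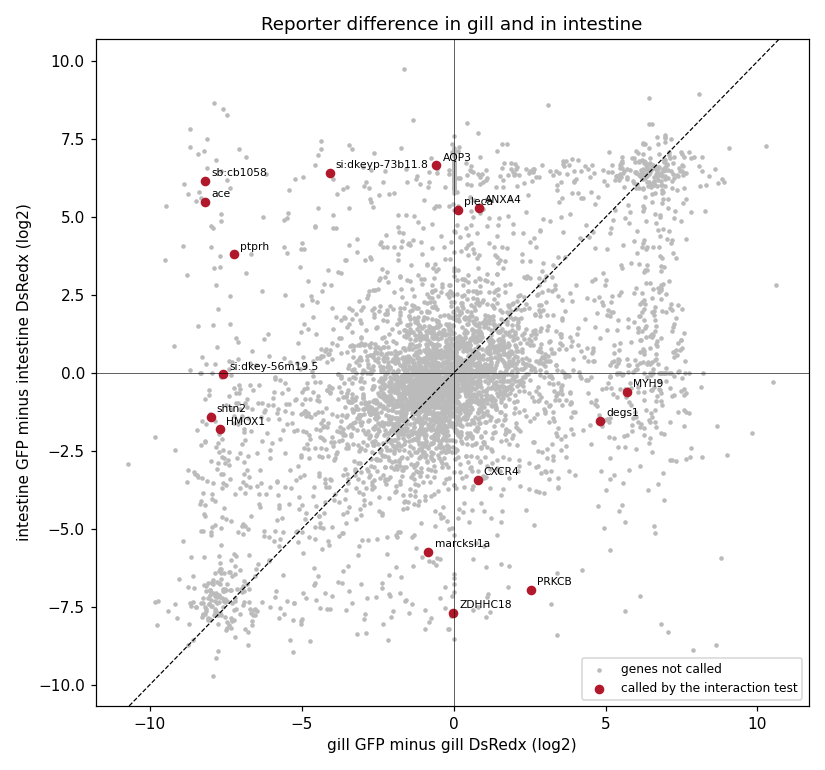
Log2 difference of GFP over DsRedx cells in gill (x axis) against the same in intestine (y axis) for the 4710 genes; red points are the 16 genes called by the interaction test and the dashed line marks equal differences. The called genes lie off the dashed line, for example ZDHHC18 near 0 in gill and at -7.69 in intestine.

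Sorted by the single group that stands farthest from the other 3 on the mean of log2(CPM + 1), 356 genes went to gill GFP upward, 432 to gill GFP downward, 370 to gill DsRedx upward and 539 to gill DsRedx downward. The intestine classes held 439 genes for GFP upward, 291 for GFP downward, 382 for DsRedx upward and 362 for DsRedx downward. The sorting uses the measured levels and is a description. Library values were fully apart, all 3 departing libraries beyond the other 9, for 1211 of 4710 genes (25.7%) over all classes, splits included. For gill GFP these were 122 upward (2.59%, against 1.99% of all genes tested) and 68 downward (1.44%, against 0.891%). For gill DsRedx they were 80 upward (1.7%, against 0.881%) and 94 downward (2%, against 1.44%). For intestine GFP they were 200 upward (4.25%, against 5.14%) and 80 downward (1.7%, against 0.816%), and for intestine DsRedx 78 upward (1.66%, against 1.07%) and 60 downward (1.27%, against 0.788%). Splits by reporter were the other large classes, with 189 genes apart and higher in GFP cells (4.01%, against 2.71%) and 182 apart and higher in DsRedx cells (3.86%, against 1.99%).

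**Figure D2:**
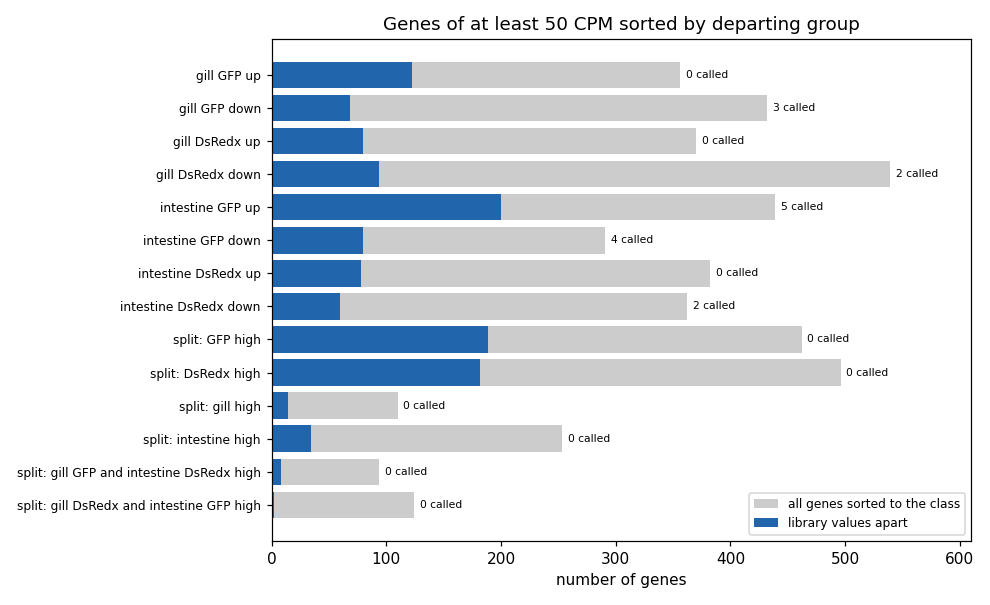
Number of genes (x axis) in each class of departing group (y axis); grey bars are all genes sorted to the class, blue bars those whose library values lie apart, and the text gives the interaction calls. The intestine GFP upward class has the most genes apart, 200, and 5 calls.

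Genes low in gill GFP cells included 3 calls. The gene si:dkey-56m19.5, of no described role here, had 2.55, 1.13 and 3.73 CPM in gill GFP against 769, 308 and 354 CPM in gill DsRedx libraries. In the intestine the gene had 302, 301 and 656 CPM in GFP against 505, 498 and 292 CPM in DsRedx libraries. Gill GFP alone was low, and the other 3 groups overlapped. Its interaction was -7.55 (log2, SE 1.08, adjusted p = 0.0084), made up of -7.59 in gill and -0.04 in intestine. shtn2, of the shootin family, had 1.06, 1.27 and 1.56 CPM in gill GFP against 425, 212 and 367 CPM in gill DsRedx libraries. For intestine the values were 79.2, 214 and 136 CPM in GFP against 326, 268 and 539 CPM in DsRedx libraries. Its interaction was -6.60 (SE 1.13, adjusted p = 0.0348). HMOX1, the heme oxygenase that breaks down heme, had 13.1, 11.99 and 18.04 CPM in gill GFP against 725, 4797 and 3439 CPM in gill DsRedx libraries. The intestine libraries held 171, 266 and 46.3 CPM in GFP against 553, 897 and 246 CPM in DsRedx libraries. Every gill GFP library was below every other library. The gill GFP over DsRedx difference was -7.70 against -1.81 in intestine (interaction -5.89, SE 1.04, adjusted p = 0.0348). The gill GFP means of si:dkey-56m19.5, shtn2 and HMOX1 were 1.03%, 0.772% and 0.957% of the tissue mean, of the order of the shared low level. With that level removed the interactions were -9.08, -10.88 and -8.4, so their sizes depend on it. The AP-1 genes FOSL1 and FOSB, both chosen after their values were seen, were also lowest in gill GFP. FOSL1 had 1.87 to 24.9 CPM in gill GFP against 245 to 389 CPM in gill DsRedx libraries. In intestine it had 292 to 370 CPM in GFP against 121 to 496 CPM in DsRedx libraries, and its interaction was not called (-5.17, adjusted p = 0.128). Of 41 AP-1, immediate early and heat shock genes at this level 2 lay apart as low in gill GFP (1.44% over all 4710 genes) and 3 as high in gill DsRedx cells (1.7%). None of the 41 was called by edgeR (0.34% over all 4710 genes), and 3 had an unadjusted p under 0.05 (14.6%). DESeq2 and limma on log2(TPM + 1) called 1 each, beside 438 and 155 of all 4710 genes.

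Genes low in gill DsRedx cells included 2 calls. MYH9 (ENSDARG00000063295), a non-muscle myosin heavy chain, had 423, 612 and 615 CPM in gill GFP against 18.9, 6.61 and 6.35 CPM in gill DsRedx libraries. Its intestine levels were 293, 410 and 236 CPM in GFP against 470, 93.1 and 860.1 CPM in DsRedx libraries (interaction 6.29, SE 1.15, adjusted p = 0.0348). A further gene with that symbol (ENSDARG00000001014) had means of 53.0 CPM in gill GFP against 3.02 CPM in gill DsRedx cells, and 64.3 CPM in intestine GFP against 63.4 CPM in intestine DsRedx cells, and was not called. degs1, a desaturase of ceramide synthesis, had 345, 285 and 554 CPM in gill GFP against 5.74, 3.13 and 33.1 CPM in gill DsRedx libraries. In the intestine the gene had 109, 105 and 183 CPM in GFP against 354, 238 and 564 CPM in DsRedx libraries (interaction 6.35, SE 1.27, adjusted p = 0.0445). Both genes were low in gill DsRedx libraries only, with no overlap. With the shared low level removed degs1 was not called (6.76, adjusted p = 0.0511, edgeR). LPAR6 (ENSDARG00000062552), a lysophosphatidic acid receptor gene, followed with 218, 251 and 360.4 CPM in gill GFP against 4.97, 3.304 and 6.07 CPM in gill DsRedx libraries. For intestine the values were 69.5, 48.3 and 84.8 CPM in GFP against 82.1, 85.2 and 113 CPM in DsRedx libraries, and the gene was not called (adjusted p = 0.0629).

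Genes high in intestine GFP cells held 5 calls. ANXA4, an annexin that binds membranes with calcium, had 102, 512 and 366 CPM in gill GFP against 83.0, 375 and 89.6 CPM in gill DsRedx libraries. The intestine libraries held 6573, 8064 and 6270.0 CPM in GFP against 146, 226 and 160.2 CPM in DsRedx libraries. The 3 groups other than intestine GFP overlapped, and the interaction was -4.46 (SE 0.87, adjusted p = 0.0445). ace, a peptidase of the gut brush border in mammals, had 0.213, 0.282 and 0 CPM in gill GFP against 0.191, 0.174 and 159.7 CPM in gill DsRedx libraries. In intestine it had 1565, 1065 and 1089 CPM in GFP against 49.3, 20.4 and 12.9 CPM in DsRedx libraries. Intestine GFP stood above all others, but the fitted interaction of -13.66 (SE 2.48, adjusted p = 0.0348) drew on gill DsRedx 3, and without that library it was -5.43 (adjusted p = 0.153). sb:cb1058 had 0.638, 0.282 and 0.156 CPM in gill GFP against 1.53, 332 and 0.414 CPM in gill DsRedx libraries. Its intestine levels were 240, 463 and 356 CPM in GFP against 5.65, 4.38 and 4.70 CPM in DsRedx libraries. Here gill DsRedx 2 overlapped the intestine GFP libraries, and without it the interaction of -14.35 (adjusted p = 0.0348) became -7.41 (adjusted p = 0.0564). ptprh, a receptor-type tyrosine phosphatase, had 0, 0.282 and 0.311 CPM in gill GFP against 80.5, 9.39 and 1.79 CPM in gill DsRedx libraries. In the intestine the gene had 488, 302 and 222 CPM in GFP against 58.3, 3.98 and 9.88 CPM in DsRedx libraries. Its interaction of -11.03 (adjusted p = 0.0445) was -8.45 without gill DsRedx 1 (adjusted p = 0.0799). si:dkeyp-73b11.8 had no count in gill GFP against 0.765, 0 and 0 CPM in gill DsRedx libraries. For intestine the values were 708, 635 and 629 CPM in GFP against 6.48, 9.03 and 7.29 CPM in DsRedx libraries. Its fitted interaction of -10.51 (adjusted p = 0.0445) depends on the prior count of the fit and had an adjusted p of 1 without gill DsRedx 1. The gill GFP means of ace, sb:cb1058 and ptprh were 0.616%, 0.643% and 1.29% of the tissue mean, of the order of the shared low level. For si:dkeyp-73b11.8 the intestine DsRedx mean was 2.29%. With that level removed the interactions of ace, sb:cb1058, ptprh and si:dkeyp-73b11.8 were -17.97, -17.87, -12.06 and -12.78, so their sizes depend on it.

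Brush border genes build and equip the absorptive surface of enterocytes. Of 54 such genes found, 16 met the minimum mean level set for the 4710 genes. Of these 16, 9 lay apart as high in intestine GFP cells, beside 200 of all 4710 genes (4.25%), and ace was the call. A gene that met the minimum in intestine GFP only, such as VIL1 below, has its highest mean there by selection. The list was also chosen with earlier results of these data known, so its share is a description. Of the 21 tested genes of the list 6 had no count in 1 tissue, where the interaction has no estimate. The median interaction over the other 15 was -1.93, beside -0.03 over all genes tested with a count in both tissues. VIL1, the villin that bundles microvillar actin, was a marker set for gut epithelium, and was added to the named genes after its values were seen. It had no count in gill GFP against 0, 0 and 0.276 CPM in gill DsRedx libraries. The intestine libraries held 802, 762 and 1174 CPM in GFP against 9.92, 8.89 and 9.27 CPM in DsRedx libraries, and VIL1 was not called (adjusted p = 0.0606). Keratin and surface cytoskeleton genes had 4 of 22 apart as high in intestine GFP (4.25% over all 4710 genes), 2 as high in gill GFP (2.59%) and 4 as high in GFP of both tissues (4.01%), with ANXA4 as the call. TAGLN (ENSDARG00000033466), an actin-binding gene of smooth muscle, had 21.7, 3.81 and 6.53 CPM in gill GFP against 8.60, 55.7 and 149.6 CPM in gill DsRedx libraries. In intestine it had 551, 304 and 502 CPM in GFP against 16.7, 59.6 and 29.9 CPM in DsRedx libraries (not called, adjusted p = 0.107). The summed level of the endothelial, stromal and muscle list was 32.2 to 93.6 CPM in gill GFP against at most 412 CPM in gill DsRedx libraries. Its intestine levels were 923 to 1690.0 CPM in GFP against 282 to 372 CPM in DsRedx libraries, and its part in the result was not tested. Of its 41 genes only 2 passed the filter on low counts, TAGLN and the smooth muscle myosin gene MYH11 (ENSDARG00000009782). MYH11 had 1135, 603 and 529 CPM in intestine GFP against 264, 9.56 and 14.5 CPM in intestine DsRedx libraries (not called, adjusted p = 0.579, edgeR). These 2 genes made up most of the intestine GFP sums, which therefore do not show a broad endothelial or stromal level. In bulk samples, fewer cells of a type and less RNA per cell cannot be told apart.

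Many intestine GFP genes had no count at all in gill, where the test has no estimate of the gill difference. Among the 4710 genes, 89 had no count in any gill library and 22 no count in any intestine library, a level below 0.0722 CPM in gill and 0.0507 CPM in intestine by a floor of 3 counts over 6 libraries (counting error only). edgeR called none of these 111, with a lowest unadjusted p of 0.999. limma on log2(TPM + 1) called 58 of the 89 and 16 of the 22 (155 of all 4710 genes), and none with a pseudocount of 0.1. DESeq2 called 32 and 15 (438 of all 4710 genes). Of the 89, 74 lay apart with intestine GFP highest and 9 with intestine DsRedx highest, and of the 22, 17 lay apart with gill GFP highest and 4 with gill DsRedx highest. foxa3, a factor of endoderm, had 1274, 1188 and 1181 CPM in intestine GFP and 13.6, 14.2 and 13.5 CPM in intestine DsRedx libraries, with no count in gill. cdx1b, a homeobox factor of the gut, had 362, 326 and 392 CPM in intestine GFP and 3.45, 3.58 and 3.34 CPM in intestine DsRedx libraries, with no count in gill. Of 14 gut endoderm transcription factors that met the minimum mean level, 7 lay apart as high in intestine GFP (4.25% over all 4710 genes), among them GATA6 and HNF4G. Those that met it in intestine GFP only, such as GATA6, have their highest mean there by selection, so this share is a description. None of the 14 was called by edgeR (0.34% over all 4710 genes) or had an unadjusted p under 0.05 (14.6%). DESeq2 called 3 and limma on log2(TPM + 1) 6, beside 438 and 155 of all 4710 genes. Of the 23 tested genes of the list 9 had no count in 1 tissue. The median interaction over the others was 0.018, beside -0.028 over all genes tested with a count in both tissues. The tight junction genes cldn15lb, cldn15la and cldn3d were likewise without a count in gill. cldn15lb had 2872, 2933 and 1959 CPM in intestine GFP and 26.7, 29.5 and 25.7 CPM in intestine DsRedx libraries.

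The counterpart in gill was a set of factors without a count in intestine. PAX9, a factor of pharyngeal pouch endoderm, chosen after its values were seen, had 46.4, 46.4 and 155.5 CPM in gill GFP and 0.765, 0.870 and 0.138 CPM in gill DsRedx libraries, with none in intestine. pou2f3, the factor of tuft cells in mammals, chosen in the same way, had 124, 109 and 295 CPM in gill GFP and 1.53, 2.09 and 0.966 CPM in gill DsRedx libraries, with none in intestine. GATA3 had 136, 61.3 and 254 CPM in gill GFP against 0.765, 1.04 and 1.38 CPM in gill DsRedx libraries, and no count in intestine GFP against 0.276, 0 and 0 CPM in intestine DsRedx libraries, and was not called (adjusted p = 0.156). Of 10 pharyngeal and surface epithelium factors 4 lay apart as high in gill GFP (2.59% over all 4710 genes). Factors that met the minimum mean level in gill GFP only, such as PAX9, have their highest mean there by selection. None of the 10 was called by edgeR (0.34% over all 4710 genes), and 2 had an unadjusted p under 0.05 (14.6%). DESeq2 and limma on log2(TPM + 1) called 3 each, beside 438 and 155 of all 4710 genes. Claudins and tight junction genes were divided: of 19, 4 lay apart as high in gill GFP (2.59% over all 4710 genes), 4 as high in intestine GFP (4.25%) and 6 as high in GFP of both tissues (4.01%). cldn3c had 2310.0, 5865 and 3807 CPM in gill GFP against 36.5, 44.2 and 33.95 CPM in gill DsRedx libraries. In the intestine the gene had 84.8, 267 and 900.4 CPM in GFP against 4.27, 4.38 and 4.201 CPM in DsRedx libraries. The DsRedx means were 1.9% of the tissue mean in gill and 2.03% in intestine, of the order of the shared low level, and are not read as expression. The interaction was 0.11 (SE 0.93, adjusted p = 1), and -2.15 with that level removed (adjusted p = 0.353), with values of both signs over the other alternatives.

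Genes low in intestine GFP cells held 4 calls. CXCR4 (ENSDARG00000041959), the receptor of the chemokine CXCL12, had 3762, 9191 and 6168 CPM in gill GFP against 1085, 4624 and 5356 CPM in gill DsRedx libraries. For intestine the values were 306, 298 and 823 CPM in GFP against 4077, 7645 and 3573 CPM in DsRedx libraries. It was low in intestine GFP only (interaction 4.21, SE 0.79, adjusted p = 0.0348), with a difference of 0.79 in gill and -3.42 in intestine. PRKCB (ENSDARG00000022254), a protein kinase C of immune receptor signalling, had 341, 233 and 119 CPM in gill GFP against 4.78, 52.9 and 61.6 CPM in gill DsRedx libraries. The intestine libraries held 0.781, 1.05 and 0.586 CPM in GFP against 27.6, 179 and 97.6 CPM in DsRedx libraries (interaction 9.49, SE 1.77, adjusted p = 0.0348). marcksl1a, a membrane and actin binding substrate of protein kinase C, had 328, 293 and 699 CPM in gill GFP against 964, 560.3 and 822 CPM in gill DsRedx libraries. In intestine it had 20.8, 15.98 and 5.204 CPM in GFP against 458, 718 and 1074 CPM in DsRedx libraries (interaction 4.91, SE 0.96, adjusted p = 0.0445). Its copy marcksl1b had means of 977 CPM in gill GFP against 2946 CPM in gill DsRedx cells, and 724 CPM in intestine GFP against 436 CPM in intestine DsRedx cells. ZDHHC18 (ENSDARG00000105034), a palmitoyltransferase, had 14.8, 110.4 and 432 CPM in gill GFP against 230.4, 148 and 182 CPM in gill DsRedx libraries. Its intestine levels were 1.13, 0.861 and 1.1 CPM in GFP against 311, 106 and 231 CPM in DsRedx libraries (interaction 7.68, SE 1.52, adjusted p = 0.0445). For all 4 genes the intestine GFP libraries lay below the other 9. The intestine GFP means of PRKCB and ZDHHC18 were 1.58% and 0.949% of the tissue mean, of the order of the shared low level. With that level removed their interactions were 13.82 and 13.88, and marcksl1a was not called (5.91, adjusted p = 0.123, edgeR). Further genes sharing a symbol were not called. CXCR4 (ENSDARG00000057633) had means of 28.1 CPM in gill GFP against 1.02 CPM in gill DsRedx cells, and 25.9 against 66.45 CPM in intestine (interaction 6.13). PRKCB (ENSDARG00000008723) had 6.07 against 13.97 CPM in gill and 2.64 against 0.046 CPM in intestine (interaction -6.66). ZDHHC18 (ENSDARG00000069807) had 74.5 against 98.45 CPM in gill and 131 against 111.5 CPM in intestine (interaction -0.64).

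Of 12 genes of MHC class II presentation 6 lay apart as low in intestine GFP cells, against 80 of all 4710 (1.7%). None was called by edgeR (0.34% over all 4710 genes), and 4 had an unadjusted p under 0.05 (14.6%). DESeq2 called 2 and limma on log2(TPM + 1) 3, beside 438 and 155 of all 4710 genes. The invariant chain gene cd74a had 7485, 10340.0 and 14950.0 CPM in gill GFP against 26520.0, 28250.0 and 32340.0 CPM in gill DsRedx libraries. In the intestine the gene had 2315, 2159 and 1536 CPM in GFP against 16920.0, 16590.0 and 12240.0 CPM in DsRedx libraries. GFP cells were below DsRedx cells in both tissues, and the interaction was 1.52 (SE 0.41, adjusted p = 0.156). mhc2dab, a class II chain gene, had 1983 to 4964 CPM in gill GFP against 6173 to 16420.0 CPM in gill DsRedx libraries. For intestine the values were 579 to 1210.0 CPM in GFP against 2614 to 10230.0 CPM in DsRedx libraries (adjusted p = 0.656). Outside the list, mhc2dca and mhc2d8.45b1, class II genes by symbol and chosen after their values were seen, were higher in gill GFP than in gill DsRedx cells. mhc2dca had means of 140.4 against 1.46 CPM, and mhc2d8.45b1 184.8 against 2.07 CPM. Neither had a count in intestine. The lysosomal protease gene ctss2.1, chosen after its values were seen, had 235 to 934 CPM in gill GFP against 688 to 1694 CPM in gill DsRedx libraries. The intestine libraries held 58.3 to 74.6 CPM in GFP against 1458 to 2359 CPM in DsRedx libraries, with an interaction of 3.72 (adjusted p = 0.079). Of 21 chemokine and cytokine genes 4 lay apart as low in intestine GFP and 3 as high in gill DsRedx (1.7% over all 4710 genes for either class), with CXCR4 as the call.

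**Figure D3:**
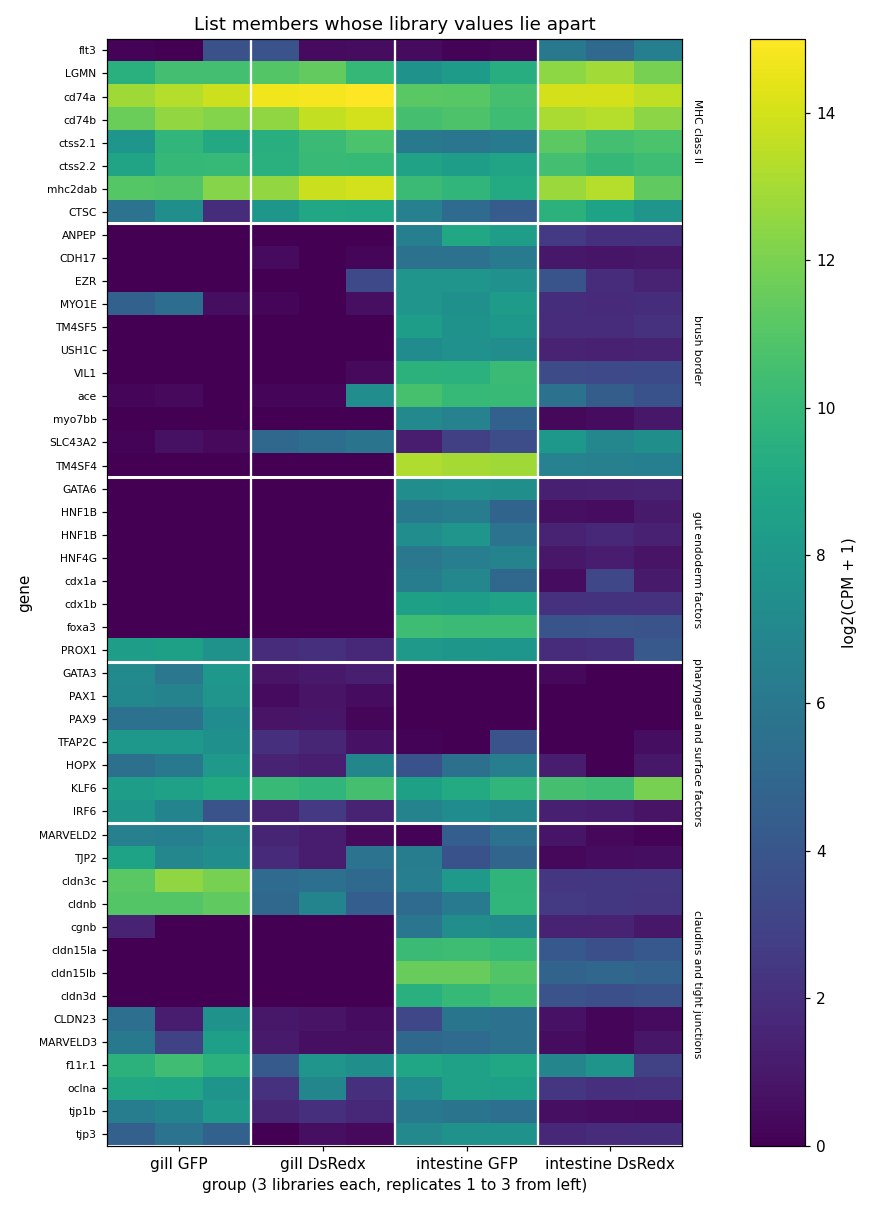
Level (colour, log2(CPM + 1)) of genes of 5 lists whose library values lie apart (rows) in the 12 libraries (columns). Gut endoderm factors such as foxa3 are bright in the intestine GFP columns, and PAX9 and GATA3 in the gill GFP columns.

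Genes low in intestine DsRedx cells included 2 calls. AQP3 (ENSDARG00000003808), a channel for water and glycerol, had 155, 196 and 453 CPM in gill GFP against 375, 80.3 and 735 CPM in gill DsRedx libraries. In intestine it had 49.0, 102 and 97.9 CPM in GFP against 1.24, 0.664 and 0.494 CPM in DsRedx libraries (interaction -7.24, SE 1.35, adjusted p = 0.0348). pleca, a plectin that links intermediate filaments to junctions, had 637, 1275 and 1013 CPM in gill GFP against 237, 1147 and 1273 CPM in gill DsRedx libraries. Its intestine levels were 1085, 1082 and 569 CPM in GFP against 47.8, 12.9 and 12.1 CPM in DsRedx libraries (interaction -5.09, SE 1.01, adjusted p = 0.0445). In both, intestine DsRedx alone was low. The AQP3 intestine DsRedx mean was 1.91% of the tissue mean, of the order of the shared low level. With that level removed the AQP3 interaction was -9.51, and pleca was not called (-5.58, adjusted p = 0.0526, edgeR). The pleca copy plecb was not called, with means of 33.4 CPM in gill GFP against 188.5 CPM in gill DsRedx cells, and 162 CPM in intestine GFP against 127 CPM in intestine DsRedx cells. ITGB6, an integrin chain of epithelium in mammals, had 12.43, 6.21 and 130.0 CPM in gill GFP against 287, 150 and 141 CPM in gill DsRedx libraries. In the intestine the gene had 90.6, 140 and 164 CPM in GFP against 1.93, 1.195 and 4.08 CPM in DsRedx libraries (not called, adjusted p = 0.0807).

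**Figure D4:**
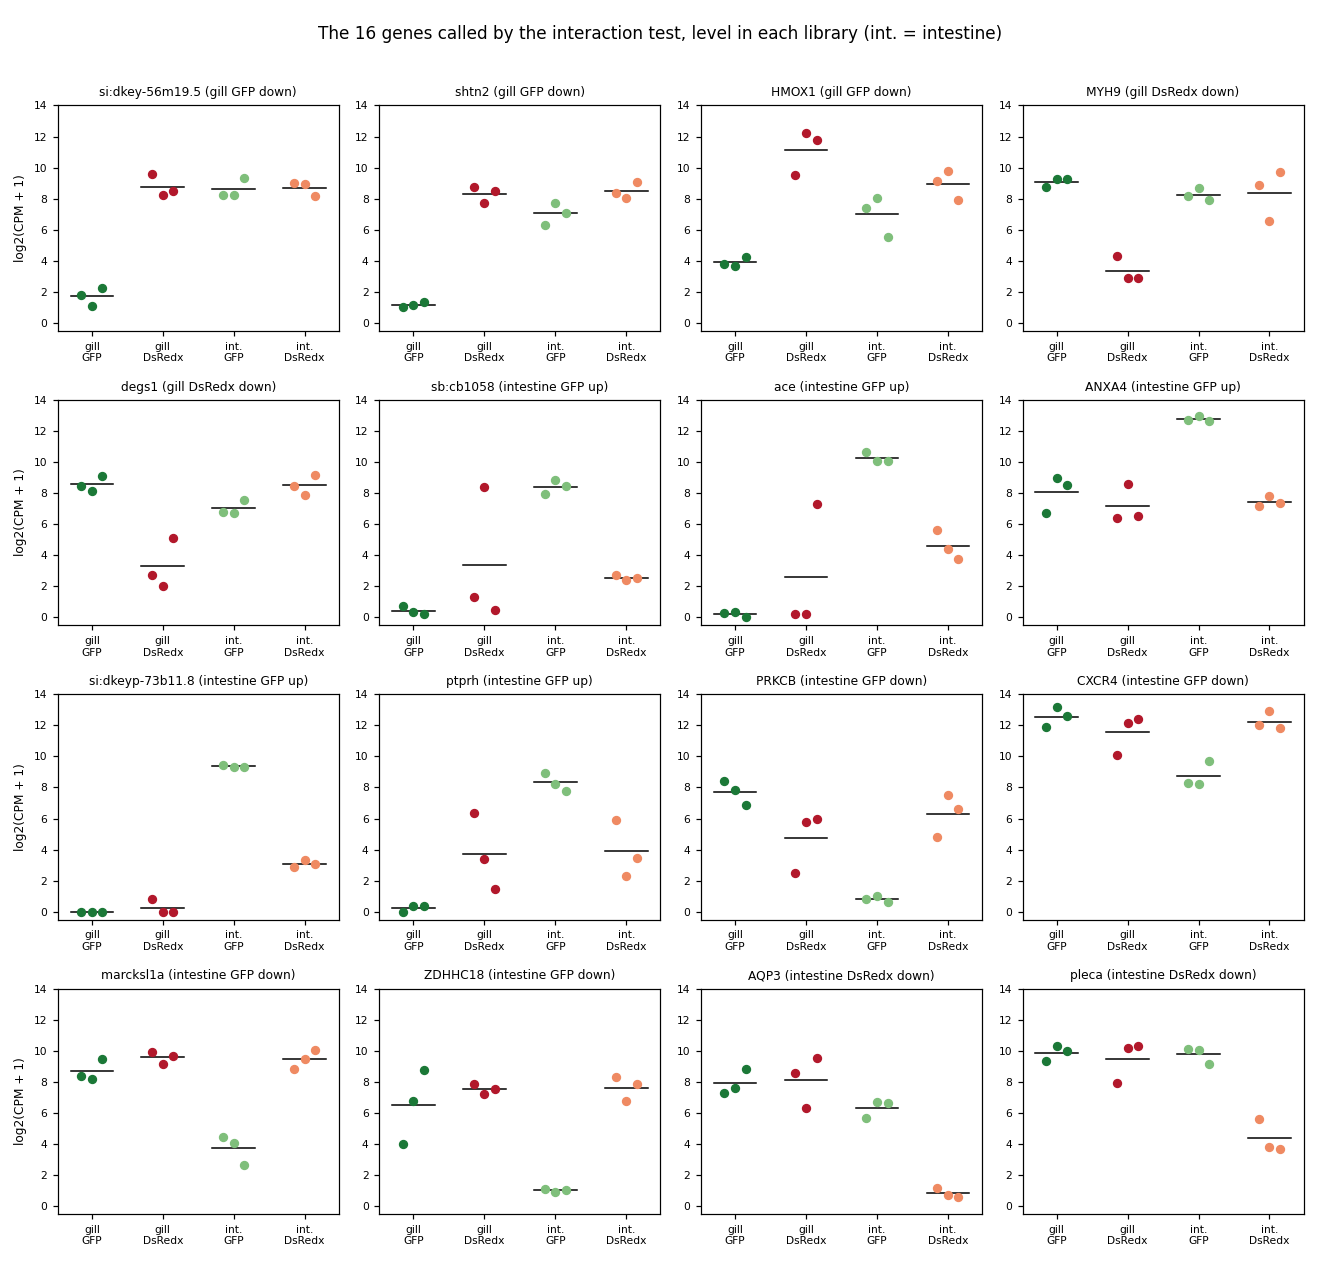
Level in log2(CPM + 1) (y axis) of the 16 called genes in each library (points) of the 4 groups (x axis), with the group mean as a line. In 15 panels the departing group lies apart from the others, and in sb:cb1058 gill DsRedx 2 reaches the intestine GFP libraries.

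edgeR called no gene of the classes high in gill GFP, gill DsRedx or intestine DsRedx cells, which held 356, 370 and 382 genes. An unadjusted p under 0.05 was reached by 48, 51 and 41 of them, beside 14.6% of all 4710 genes. DESeq2 called 42, 29 and 25 genes of these classes, beside 438 of all 4710. For limma on log2(TPM + 1) the counts were 29, 2 and 8, beside 155 of all 4710. Among gill GFP genes apart, lrrc15, a leucine-rich repeat gene, had 37.1, 129 and 116 CPM in gill GFP against 0.191, 0.696 and 0.276 CPM in gill DsRedx libraries, and no count in intestine GFP against 21.1, 0.133 and 0 CPM in intestine DsRedx libraries (adjusted p = 0.0807). PLK3, a stress-responsive kinase, had 1209, 1296 and 2230.0 CPM in gill GFP against 129, 379 and 71.4 CPM in gill DsRedx libraries. For intestine the values were 146, 372 and 487 CPM in GFP against 597, 254 and 1069 CPM in DsRedx libraries (interaction 3.97, adjusted p = 0.128). grna.2, a progranulin gene, had 22040.0, 25770.0 and 44270.0 CPM in gill GFP against 370.2, 1354 and 255 CPM in gill DsRedx libraries. The intestine libraries held 514, 1122 and 1213 CPM in GFP against 80.5, 36.4 and 161 CPM in DsRedx libraries. It was higher in GFP cells of both tissues, by 5.54 in gill and 3.36 in intestine, and the interaction of 2.18 was not called (adjusted p = 0.22).

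Among gill DsRedx genes apart, the chemokine gene ccl35.1, chosen after its values were seen, had 1124, 1282 and 1041 CPM in gill GFP against 5088, 5380.0 and 6403 CPM in gill DsRedx libraries, and 2169, 2364 and 2492 CPM in intestine GFP against 4705, 2747 and 1489 CPM in intestine DsRedx libraries (interaction -1.94, adjusted p = 0.178). The interleukin 12 subunit gene il12ba, chosen in the same way, had 2.87, 0.282 and 0.311 CPM in gill GFP against 56.8, 36.2 and 65.1 CPM in gill DsRedx libraries, and 0.347, 0.287 and 12.9 CPM in intestine GFP against 0.138, 0 and 0.247 CPM in intestine DsRedx libraries (adjusted p = 0.178). Among intestine DsRedx genes apart, AXIN1, a scaffold of Wnt signalling, had 14.7, 21.4 and 0 CPM in gill GFP against 0.382, 0.174 and 0.138 CPM in gill DsRedx libraries, and 0.174, 0.670 and 0.293 CPM in intestine GFP against 55.0, 30.5 and 147 CPM in intestine DsRedx libraries (adjusted p = 0.117). csf1ra, the macrophage growth factor receptor, was a marker set for macrophages, and was added to the named genes after its values were seen. It had no count in gill GFP against 0, 11.48 and 1.52 CPM in gill DsRedx libraries. In intestine it had 1.04, 0.861 and 0.660 CPM in GFP against 98.0, 258 and 197 CPM in DsRedx libraries. Its interaction changed sign over the alternatives (adjusted p = 0.829).

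Of 30 macrophage identity genes 13 lay apart as high in DsRedx cells of both tissues, against 182 of all 4710 (3.86%), and HMOX1 was the call. CEBPB, a factor of myeloid cells, had 620, 356 and 342 CPM in gill GFP against 3285, 3371 and 5022 CPM in gill DsRedx libraries, and 93.9, 169 and 108 CPM in intestine GFP against 4151, 3911 and 13240.0 CPM in intestine DsRedx libraries. GFP cells were lower by 3.15 in gill and by 5.84 in intestine (log2), and the interaction of 2.70 was not called (SE 0.69, adjusted p = 0.128). Of 17 adhesion and junction genes 11 lay apart as high in GFP cells of both tissues (4.01% over all 4710 genes). icn, an S100 family calcium-binding gene, had 1618, 3216 and 1397 CPM in gill GFP against 52.6, 174 and 174 CPM in gill DsRedx libraries, and 3067, 2975 and 3380.0 CPM in intestine GFP against 61.7, 39.7 and 32.6 CPM in intestine DsRedx libraries (interaction -2.18, adjusted p = 0.199). Crossed patterns held 94 genes high in gill GFP and intestine DsRedx cells (2%) and 124 high in gill DsRedx and intestine GFP cells (2.63%). Few of them lay apart, 8 of the former (0.17%, against 0.0938% of all genes tested) and 2 of the latter (0.0425%, against 0.0844%). An unadjusted p under 0.05 was reached by 30 and 53, beside 14.6% of all 4710 genes, in classes sorted on the same values. edgeR called none, DESeq2 17 and 26, and limma on log2(TPM + 1) 6 and 4, beside 438 and 155 of all 4710 genes. VMP1, a protein of autophagosome formation, had 1010.0, 1412 and 1621 CPM in gill GFP against 270.4, 392 and 247 CPM in gill DsRedx libraries, and 304, 290 and 249 CPM in intestine GFP against 775, 646 and 598 CPM in intestine DsRedx libraries (interaction 3.41, SE 0.75, adjusted p = 0.079).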

How the data were processed

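The authors deposited raw counts per Ensembl gene for 12 libraries, and a table of TPM from the same libraries. Per the submitters' processing notes STAR, featureCounts and danRer11 were used; versions, strand setting and annotation release are not stated there. Gene symbols came from the supplied name table (29201 of 32520 identifiers). Counts were filtered with filterByExpr, scaled by TMM and tested with edgeR 4.0.16 (1 mean per group, 8 residual degrees of freedom, quasi-likelihood F test, Benjamini-Hochberg over 10666 genes). R 4.3.3, limma 3.58.1, DESeq2 1.42.0 and, for figures, matplotlib were used. Libraries were not treated as paired by replicate number, and whether the numbers mark shared fish is not stated. In the simulated counts (10182 genes tested) each gene had 1 mean over all 12 libraries and a capped dispersion. Changes were placed in gill GFP, in genes averaging at least 50 CPM over the libraries. The interaction recovered 17.9%, 52.2% and 81.8% of genes changed by 4, 6 and 8 on the log2 scale, and called 6 unchanged genes. Groups differing as in the data were not simulated.

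Genes were named by a rule: in each class, called genes whose libraries lay apart by smallest p (up to 5, filled to 3 with uncalled ones), up to 4 called genes per list or the 2 of highest level, and a set of markers. This gave 90 genes, and 37 more were added after their values were seen. mhc2dca and mhc2d8.45b1 were added besides and are not among the 127 genes followed over the alternatives. Members and lists were chosen with earlier results of these data known. List genes entered the class shares only if they met the minimum mean level in a group, so these shares are descriptions. The 26 lists held 1082 entries, of which 988 were matched; copies sharing a symbol carry the uncertainty of reads shared by paralogs.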

Additional observations from a re-analysis of the deposited data

Results flagged for a closer look

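The GFP over DsRedx difference was called as different between gill and intestine, by the interaction term of edgeR's quasi-likelihood fit, in 16 genes. It was lower in gill than in intestine for 10 genes, with the interaction on the log2 scale in brackets: si:dkey-56m19.5 (-7.55), shtn2 (-6.60), HMOX1 (-5.89), sb:cb1058 (-14.35), ace (-13.66), AQP3 (-7.24), ANXA4 (-4.46), pleca (-5.09), si:dkeyp-73b11.8 (-10.51), ptprh (-11.03). It was higher in gill for 6 genes: MYH9 (6.29), PRKCB (9.49), CXCR4 (4.21), marcksl1a (4.91), ZDHHC18 (7.68), degs1 (6.35). The largest negative values depended on 1 gill DsRedx library. Without gill DsRedx 3 ace was at -5.43, without gill DsRedx 2 sb:cb1058 was at -7.41. Without gill DsRedx 1 ptprh was at -8.45 and si:dkeyp-73b11.8 at -6.29, and each of these lost the call. Of the 16 genes, si:dkey-56m19.5 alone was called in all 12 fits that left out 1 library. The groups held 3 libraries each, so no library was tested as an outlier of its group.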

How the results depend on the processing

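Of the 16 called genes none changed sign under any alternative run. With 1 library left out their values stayed called in 67 cases and lost the call in 125. Under the other alternatives they stayed called in 161 cases and lost the call in 62, ace having no adjusted p in DESeq2. The 161 include the member minimums of 20 and 100 CPM. These reuse the main fit, so all 16 genes stay called there by construction. The main count was 16 (6 positive, 10 negative); leaving out 1 library gave 1 to 17 calls (0 to 9 positive, 1 to 12 negative), and each fit then had fewer samples. Calls numbered 9 with RLE scaling (3 positive, 6 negative), 102 with no filter on low counts (46 and 56), 14 with the stricter filter (6 negative), 2 with the number of genes with a count as covariate (0 and 2), 438 with DESeq2 (232 and 206), 155 with limma on log2(TPM + 1) (63 and 92), 0 with a pseudocount of 0.1 (0 and 0, with 602 at an unadjusted p under 0.05), 78 without its filter (25 and 53) and 29 with the shared low level removed (16 positive); the cause was not tested. Of the 438 calls of DESeq2 15 were among the 16, and of the 155 of limma 12. Whether replicate numbers pair the libraries is not known. Same-number deviations correlated at -0.034 to 0.042, beside -0.037 to 0.046 for other numbers, and 7 of 12 libraries correlated best with their own number. The replicate block gave 23 calls, the 16 among them. Leaving out 1 library gave 117 to 226 genes apart for gill GFP up, 64 to 132 for gill GFP down, 79 to 243 for gill DsRedx up, 89 to 216 for gill DsRedx down, 162 to 232 for intestine GFP up, 84 to 132 for intestine GFP down, 83 to 180.0 for intestine DsRedx up and 61 to 120.0 for intestine DsRedx down, since 2 libraries lie apart more easily than 3. RLE scaling gave 121 for gill DsRedx up, a member minimum of 20 CPM 332 for intestine GFP up, and one of 100 CPM 72 for gill GFP up, 49 for gill DsRedx down, 129 for intestine GFP up and 47 for intestine DsRedx down. Reversed values, on the log2 scale, were all of uncalled genes (25 of 127 named). With upper-quartile scaling the value of cldn3c was -0.066. With no filter on low counts the value of krt4 was 0.016. With the replicate block the values were csf1ra 0, TIMP2 0.49. With the number of genes with a count as covariate the value of cldn3c was -0.23. With DESeq2 the value of csf1ra was 0.068. With limma on log2(TPM + 1), filtered, the values were c1qb 0.04, csf1ra 4.66, cldnb 1.05, TIMP2 3.61, FERMT3 ENSDARG00000079267 1.72, mhc1zba -0.071, FERMT3 ENSDARG00000030938 0.29. With limma on log2(TPM + 0.1), filtered, the values were csf1ra 4.27, cldnb 0.90, TIMP2 4.19, FERMT3 ENSDARG00000079267 1.60, mhc1zba -0.071, FERMT3 ENSDARG00000030938 0.33. With limma on log2(TPM + 1), no filter, the values were c1qb 0.04, csf1ra 4.66, cldnb 1.05, TIMP2 3.61, FERMT3 ENSDARG00000079267 1.72, mhc1zba -0.071, FERMT3 ENSDARG00000030938 0.29. With the shared low level removed the values were c1qc 4.25, c1qb 5.61, SPI1 0.49, marco 0.88, csf1ra 5.38, FABP7 4.29, ptprc 3.38, TIMP2 2.35, FERMT3 ENSDARG00000079267 0.82, cldn3c -2.15. Leaving out 1 library gave ranges of -1.04 to 0.63 for FABP7, -1.11 to 1.16 for FERMT3 ENSDARG00000030938, -2.55 to 0.54 for FERMT3 ENSDARG00000079267, -0.62 to 2.94 for JUN, -0.14 to 0.97 for KLF6, -5.33 to 2.63 for MYH11, -0.087 to 1.14 for PLIN2, -0.11 to 3.50 for RAB11B, -1.44 to 0.009 for SPI1, -1.25 to 8.63 for TFAP2C, -1.48 to 7.99 for TIMP2, -0.20 to 0.83 for b2m, -2.15 to 1.60 for cdh1, -0.38 to 1.56 for cldn3c, -1.48 to 1.96 for cldnb, -0.10 to 0.68 for creb3l3l, -1.01 to 2.04 for csf1ra, -4.72 to 1.33 for krt4, -0.82 to 0.14 for mcl1a, -0.41 to 0.77 for mhc1zba, -0.83 to 0.18 for tuba5.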
